A study of Mus musculus with 8 samples.

Results

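The cytosolic chaperonin TRiC (also called CCT, chaperonin containing TCP1) folds newly made actin and tubulin and a set of other proteins inside a closed cage. It is built of 2 stacked rings, and each ring holds 1 copy of each of 8 related subunits, which are the products of 8 separate genes. Those genes, Tcp1, Cct2, Cct3, Cct4, Cct5, Cct6a, Cct7 and Cct8, are described here by the number and the poly(A) tail length of their mRNAs. The members were taken by gene symbol from the reads that passed the tail-calling quality tag and lay on mRNAs, so 8 of the 13120 genes with reads are covered. Each ring needs its subunits in equal number, and a poly(A) tail is the stretch of adenosines at the 3′ end of an mRNA, which helps its translation and is shortened before the mRNA decays. The question asked here was therefore how alike the 8 mRNAs of 1 complex are, in reads and in tails, and whether the treatment of the study moved them.

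The cells were wild-type mouse P19 cells, an embryonal carcinoma line with the properties of early embryonic stem cells, kept undifferentiated. They were exposed to 10 µM MHY1485 (MHY), a compound used to activate the kinase mTOR, or to its solvent DMSO alone, and harvested after 24 h or 48 h; the medium and the compound were renewed after the first day. The study used this design to ask whether mTOR activation alters mRNA poly(A) tails and levels, above all in TOP mRNAs, which encode much of the translation machinery and begin with a terminal oligopyrimidine motif, and in mRNAs of ribosome biogenesis. Poly(A) RNA of each of 8 libraries (4 groups of 2) was sequenced directly on nanopores, so that every read is 1 native RNA molecule with its own tail length. In the deposited table each treatment has libraries 21 and 23 (harvested after 24 h) and libraries 24 and 25 (harvested after 48 h), where the number is only a name. A column of the deposited table, headed sample, splits the reads into sets that each held both treatments but 1 time point. There were 3 such sets for 24 h and 2 for 48 h. They are called runs here, although no label says what they are. The study's methods name 2 multiplexed preparations for each time point. The effect of time cannot be told apart from that of the runs. The study's methods describe the 2 libraries of a group as biological replicates. P-values of MHY against DMSO rest on the spread between libraries of a group, whereas genes and complexes were compared within libraries, over all 8. The limma fits pool this spread over genes. In reads the pooling was complete, so that the spread of a gene's own libraries did not enter its p-value.

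A library held 178369 to 316546 mRNA reads, of which 886 to 1704 (49.7 to 60.4 per 10000) were chaperonin reads. The 2 libraries of a group differed by more than counting noise, with a chi-square of gene counts of 1.19 to 1.56 per degree of freedom. Of 7 markers of undifferentiated embryonal carcinoma cells, all 7 had reads, and their sum was 32.9 to 37.8 reads per 10000 in every library, led by Pou5f1. Neuronal markers (5 of 6 with reads, Dcx at 0) summed to 2.43 to 4.09 per 10000, and of these Stmn2 held 455 of 594 reads. Markers of mesoderm (3 of 3) summed to 0.168 to 2.31 per 10000, nearly all of them reads of T, and the groups overlapped at 48 h (0.702 and 2.31 in DMSO, 0.321 and 1.92 in MHY) but not at 24 h (0.314 and 0.580 in DMSO, 0.168 and 0.222 in MHY). Primitive endoderm (2 of 4) and fibroblast markers (2 of 3) stayed at or under 0.133 per 10000, and blood markers (0 of 2) were at 0. Tdgf1 and T were called lower in reads under MHY at 48 h (log2 change -0.997 ± 0.213 and -1.19 ± 0.297, SE; limma voom adjusted p = 0.000679 and 0.00890). The part of these markers in the values below was not tested.

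The 3′ ends of 7 of the 8 mRNAs are shown first, because the tail measured on each read starts there. Alignments ended at 1 dominant position in every gene, and for 7 genes the 30 bases before it (from GENCODE vM21, assembly mm10, RNA strand, 5′ to 3′) are given below with the polyadenylation signal AATAAA, or its common variant ATTAAA, in capitals.
Tcp1: ggtgtctcacATTAAAgtacagcaagctga
Cct2: tgtgtattaaAATAAAaatccagttactta
Cct3: gcttccaatgATTAAAtctaagtcatttga
Cct4: aaaacATTAAAtacttggttttaaactcca
Cct5: actgtgactaAATAAAgggtgtgtctgttg
Cct7: ctgaggttatttaAATAAAgcttaaggtta
Cct8: ctgggtggtacAATAAAtgtgttactgtta
All 7 windows held a signal, which began 17 to 25 bases before the last aligned base. In Tcp1, Cct3 and Cct4 it was ATTAAA, and in Cct2, Cct5, Cct7 and Cct8 it was AATAAA. Among 1927 genes read in the same way, 68.3% had AATAAA and 14.6% had ATTAAA without AATAAA in this window, so that 82.9% had either. A match of letters is a description and not a shown site of cleavage.

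The genes lie on 8 different chromosomes (coordinates in mm10). Tcp1 (ENSMUSG00000068039.13), named after the mouse t-complex in which it was found, lies at chr17:12915701-12925067, plus strand, and its 3′ window at chr17:12924528-12924557. Cct2 (ENSMUSG00000034024.8) lies at chr10:117051001-117063814, minus strand (3′ window chr10:117051005-117051034), Cct3 (ENSMUSG00000001416.13) at chr3:88297116-88321767, plus strand (chr3:88321738-88321767), and Cct4 (ENSMUSG00000007739.10) at chr11:22990519-23003780, plus strand (chr11:23003308-23003337). Cct5 (ENSMUSG00000022234.15) lies at chr15:31590800-31601804, minus strand (chr15:31590883-31590912), and Cct6a (ENSMUSG00000029447.11) at chr5:129786998-129846371, plus strand. Cct7 (ENSMUSG00000030007.8) lies at chr6:85451514-85468475, plus strand (chr6:85468354-85468383), and Cct8 (ENSMUSG00000025613.13) at chr16:87483326-87495873, minus strand (chr16:87483875-87483904). The main transcripts have 11 to 16 exons and annotated lengths of 1853 to 2484 nt, and each of the 7 windows lies in a 3′ UTR. The main transcript of Cct6a carries the annotation processed transcript, without a coding sequence.

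In 6 of the 8 genes a single 3′ end held more than 90% of the reads. Cct2, Cct3 and Cct4 used 1 site for 99.4%, 98.5% and 99.1% of their reads, Cct7 for 95%, Cct8 for 95.2% and Cct6a for 92.1%. The Cct4 site, 186 nt after the stop codon, lay 443 nt before the annotated end of its transcript, and that of Cct8 (113 nt after the stop codon) 549 nt before it. Cct5 had a second site 70 nt downstream of the main one, at 21.7% of its reads against 75.5% at the main site, and Tcp1 had 2 further sites, 411 and 510 nt downstream of the main one, with 4.92% and 8.87% of its reads. Cct6a and Cct8 also had a second site, with 6.27% and 3.38% of their reads; neither signal was found in the window of that Cct6a site. The windows of the further Cct5 and Tcp1 sites, each with an AATAAA, were as follows.
Cct5 second site: gatgctggAATAAAagcagctgtctggtaa
Tcp1 second site: aaccttaggAATAAAtaggcctatgtgaca
Tcp1 last site: tcagaAATAAAtctgcctgcctttgcctct
These windows lie at chr15:31590813-31590842, chr17:12924939-12924968 and chr17:12925038-12925067. The second Cct5 site held 19.1% to 26.8% of the Cct5 reads at the 2 sites over the 8 libraries. Its share was 23.9% and 19.8% in DMSO and 24.7% and 20.5% in MHY at 24 h, and 19.1% and 20% in DMSO against 26.8% and 23.0% in MHY at 48 h. The groups overlapped at 24 h. At 48 h the 2 MHY values were the higher ones, a difference that was seen after the values were known and has no test here. Tails at the 2 sites overlapped: the median tail per library averaged 91.1 ± 8.06 nt (SD, n = 8 libraries) at the main Cct5 site and 89.0 ± 10.7 nt at the second. Of the Tcp1 reads, 135 (10.1%) lay on a transcript annotated as retaining an intron, with a median tail of 104.9 nt against 104.2 nt for the 1086 reads on the main coding transcript.

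The 8 mRNAs were present at nearly the same level. Reads are given per 10000 mRNA reads of a library, and since a direct RNA read is 1 molecule, they need no scaling by transcript length. The 8 genes held 1026 (Cct3) to 1549 (Cct5) reads over the 8 libraries, a range of 1.51-fold, with a coefficient of variation of 12.9% between genes against 2.77% from counting alone. The same measure was 36.1% for the 14 genes of the 20S proteasome (range 4.77-fold), whose core also needs equal numbers of its subunits, 14.4% for the 6 genes of prefoldin (1.43-fold), and 97.8% for 9 actin and tubulin genes (20.3-fold). All 8 chaperonin genes ranked between 169 and 258 among 1949 genes with at least 10 reads in each library, for which the median was 287 reads.

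Biochemical work divides the subunits of a ring into those that bind ATP tightly (the products of Tcp1, Cct2, Cct4 and Cct5) and those that bind it weakly (Cct3, Cct6a, Cct7 and Cct8), and the genes are described here in that order. Cct5, which encodes the epsilon subunit, had the following reads per 10000: 8.37 and 9.43 in DMSO at 24 h, 7.91 and 6.67 in MHY at 24 h, 7.21 and 7.96 in DMSO at 48 h, and 8.76 and 7.15 in MHY at 48 h. Cct4, whose subunit contacts actin in the cage, had 7.69 and 7.40 in DMSO at 24 h, 7.73 and 6.56 in MHY at 24 h, 8.99 and 7.33 in DMSO at 48 h, and 8.47 and 8.31 in MHY at 48 h. For Tcp1, which encodes the alpha subunit, the values were 7.28 and 6.67 (DMSO) against 7.51 and 7.57 (MHY) at 24 h, and 5.34 and 7.11 (DMSO) against 7.45 and 6.68 (MHY) at 48 h. Cct5 and Cct4 had the highest means, 7.93 ± 0.914 and 7.81 ± 0.762 (SD, n = 8 libraries), followed by Tcp1 at 6.95 ± 0.74. Cct2, which encodes the beta subunit, had 7.12 and 8.23 (DMSO) against 6.58 and 6.22 (MHY) at 24 h, and 6.74 and 7.14 (DMSO) against 6.58 and 5.09 (MHY) at 48 h, a mean of 6.71 ± 0.89.

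Of the weakly ATP-binding members, Cct7 (eta subunit) had 7.43 and 6.74 (DMSO) against 6.80 and 5.999 (MHY) at 24 h, and 6.60 and 6.51 (DMSO) against 5.87 and 6.12 (MHY) at 48 h. Cct8 (theta), which promotes assembly of the ring, had 7.22 and 7.90 (DMSO) against 6.05 and 5.999 (MHY) at 24 h, and 6.22 and 6.002 (DMSO) against 5.20 and 6.07 (MHY) at 48 h. Values of Cct6a, the gene of the zeta subunit with a testis paralog named Cct6b, were 6.18 and 7.90 (DMSO) against 5.20 and 5.33 (MHY) at 24 h, and 6.27 and 7.04 (DMSO) against 6.29 and 5.98 (MHY) at 48 h, and Cct6b itself had 0 reads. Cct3 (gamma) was lowest, with 5.39 and 6.16 (DMSO) against 4.67 and 5.33 (MHY) at 24 h, and 5.52 and 4.74 (DMSO) against 5.55 and 5.23 (MHY) at 48 h. The means were 6.51 ± 0.51 for Cct7, 6.33 ± 0.839 for Cct8, 6.27 ± 0.878 for Cct6a and 5.32 ± 0.475 for Cct3. The 4 genes with the highest means were thus those of the tightly ATP-binding subunits, a division that was noticed after the values had been seen and was not tested.

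**Figure D1:**
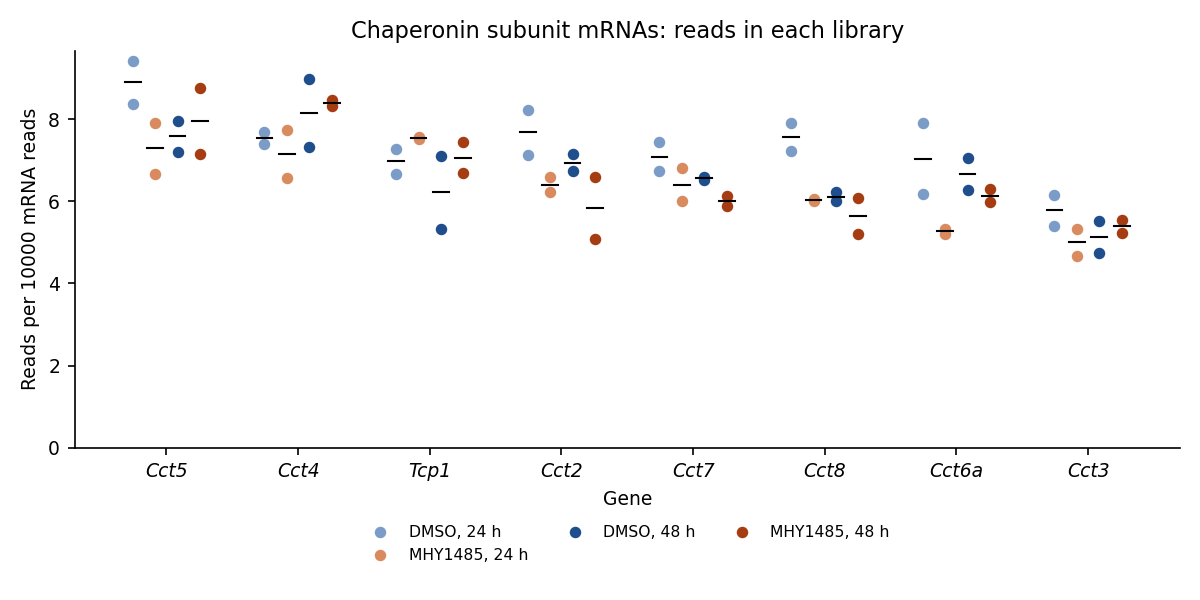
Reads per 10000 mRNA reads (vertical axis, from 0) for the 8 genes, ordered by their mean over libraries; each point is 1 library, colored by group, and each bar is the mean of the 2 libraries of a group. All points lie between 4.67 and 9.43, and Cct3 is lowest in mean.

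Each of the 28 pairs of genes was compared within libraries with a two-sided exact sign-flip permutation test over the 8 libraries, whose smallest possible p is 0.00781, and adjusted by Benjamini-Hochberg over the pairs. In reads, 14 of 28 pairs differed (adjusted p under 0.05). Cct3 was below each of the other 7 genes in this test. Against its nearest neighbour Cct6a the log2 ratio of Cct3 was -0.23 (SD 0.169; lower in 7 of 8 libraries and equal in the other, library 23 of MHY; exact permutation p = 0.0156, adjusted p = 0.0365), and against Cct5, the highest, it was -0.57 (lower in 8 of 8; exact p = 0.00781, adjusted p = 0.0273). The other 7 differing pairs set Cct5 above Cct2, Cct6a, Cct7 and Cct8, and Cct4 above Cct6a, Cct7 and Cct8. No other pair of neighbours in the order differed: Cct5 and Cct4, Cct4 and Tcp1, Tcp1 and Cct2, Cct2 and Cct7, Cct7 and Cct8, and Cct8 and Cct6a each had an adjusted p of at least 0.167. Without DMSO or MHY library 21 of 24 h, or without DMSO library 25 of 48 h, 0 pairs passed in reads, and without any 1 of the other 5 libraries 9 to 11 did. The smallest p that 7 libraries allow is 0.0156, and after adjustment pairs can pass only where many reach it together. A count of 0 therefore cannot show that the differences rest on the library left out. The mapping quality reached 10 in 68.9% of the Cct3 reads and 75.5% of the Tcp1 reads, the genes with 2 and 3 transcripts of at least 10 reads, and in 99.4% to 99.9% of the reads of each other gene.

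Tail lengths of the 8 mRNAs lay in the middle range of all genes. The median tail of a gene, averaged over libraries, ran from 89.8 nt (Cct5) to 106 nt (Cct8), with a median over the 8 genes of 98.4 nt and an SD of 5.88 nt. Over the 1949 genes that had 10 or more reads per library, the median was 100.3 nt, the SD 11.6 nt and the middle 50% of genes lay between 93.4 and 108 nt, a range that held 7 of the 8 chaperonin genes.

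Cct5 had the shortest tails, with medians (in nt) of 92.9 and 97.2 in DMSO at 24 h, 94.9 and 88 in MHY at 24 h, 88.2 and 86.2 in DMSO at 48 h, and 89.7 and 81.2 in MHY at 48 h. Those of Cct4 were 93.6 and 96.6 (DMSO) against 92.2 and 99.98 (MHY) at 24 h, and 94.2 and 90.8 (DMSO) against 89.5 and 98.5 (MHY) at 48 h. Cct2 had 97.9 and 92.2 (DMSO) against 89.8 and 104.9 (MHY) at 24 h, and 103.8 and 101.5 (DMSO) against 80.05 and 90.5 (MHY) at 48 h. Among these 3 genes, Cct2 varied most, from 80.05 to 104.92 nt. Tcp1, in contrast to the other 3 tightly ATP-binding members, had long tails, at 102.5 and 118.1 (DMSO) against 107.9 and 115.9 (MHY) at 24 h, and 101.9 and 100.4 (DMSO) against 89.99 and 103.1 (MHY) at 48 h.

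Among the weakly ATP-binding members, the medians of Cct7 were 93.1 and 93.02 (DMSO) against 94.9 and 104.3 (MHY) at 24 h, and 84.5 and 95.4 (DMSO) against 100.2 and 106.7 (MHY) at 48 h. Cct3 had 107.5 and 92.98 (DMSO) against 95.2 and 95.8 (MHY) at 24 h, and 102.05 and 110.2 (DMSO) against 98 and 100.95 (MHY) at 48 h. Cct6a reached 115.9 and 100.4 (DMSO) against 101.9 and 108.1 (MHY) at 24 h, and 109.2 and 102.2 (DMSO) against 98.3 and 94.2 (MHY) at 48 h. Cct8 had the longest tails, at 109.5 and 112.3 (DMSO) against 107.4 and 117.6 (MHY) at 24 h, and 99.9 and 97.9 (DMSO) against 94.2 and 112.3 (MHY) at 48 h. Within a library, the Cct8 median exceeded that of the other 7 genes pooled in 8 of 8 libraries (by 9.12 ± 5.83 nt, SD), and the Cct5 median was below it in 8 of 8 (difference -10.0 ± 6.89 nt).

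**Figure D2:**
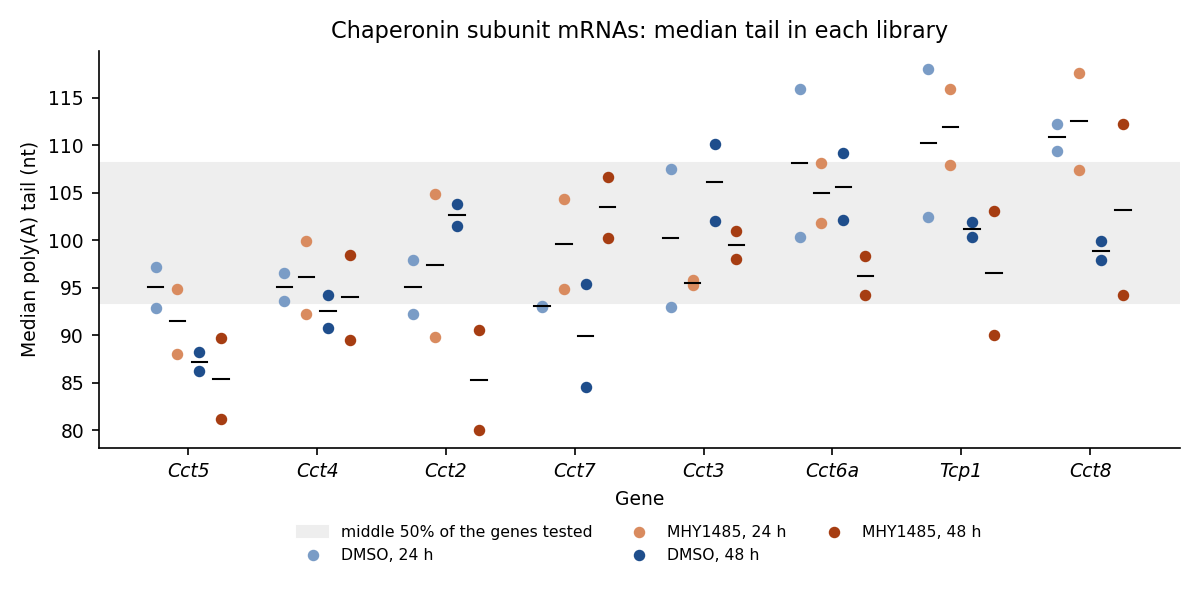
Median poly(A) tail in nt (vertical axis, not from 0) of the 8 genes, ordered by their mean over libraries; points are libraries colored by group, bars are means of 2 libraries, and the grey band is the middle 50% of 1949 genes (93.4 to 108 nt). Cct5 lies mostly below the band, and Cct2 at 48 h falls outside the band in MHY only.

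In tails, 6 of the 28 pairs differed. Cct5 tails were shorter than those of Cct8 (Cct5 minus Cct8, -16.6 ± 9.21 nt, SD over libraries) and Cct6a (-14.0 ± 7.25 nt), and Tcp1 tails were longer than those of Cct5 (Tcp1 minus Cct5, 15.2 ± 8.46 nt) and Cct4 (10.5 ± 6.80 nt). Cct4 tails were shorter than those of Cct8 (Cct4 minus Cct8, -11.96 ± 5.21 nt), and Cct2 tails were shorter than those of Cct6a (Cct2 minus Cct6a, -8.68 ± 6.77 nt). Each of these differences had the same sign in 8 of 8 libraries, with the smallest p that the test allows (exact permutation p = 0.00781, adjusted p = 0.0365). No neighbours in the order of tails (Cct5, Cct4, Cct2, Cct7, Cct3, Cct6a, Tcp1, Cct8) differed beyond their spread; the closest to it were Cct5 and Cct4 (4.63 ± 6.94 nt, exact permutation p = 0.102, adjusted p = 0.190). With any 1 library left out, 0 pairs passed; the smallest p that 7 libraries allow is 0.0156. Means of tails instead of medians set 11 pairs apart.

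The reads of a gene were spread widely around these medians. Pooled over libraries, the middle 50% of Cct5 tails ran from 57.9 to 133 nt and of Cct8 tails from 67.3 to 144 nt. Tails of 30 to 90 nt made up 45.8% of Cct5 reads (Wilson 95% interval 43.4% to 48.3%) and 36.9% of Cct8 reads (34.2% to 39.7%), with the other 6 genes between 38.7% and 43.0%. Tails shorter than 30 nt were 4.91% of Cct4 reads (3.93% to 6.12%), 4.33% of Cct5 reads and 4.29% of Cct2 reads, but 2.36% (Cct6a) to 2.91% (Tcp1) of those of the other 5 genes. The intervals cover counting error only.

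**Figure D3:**
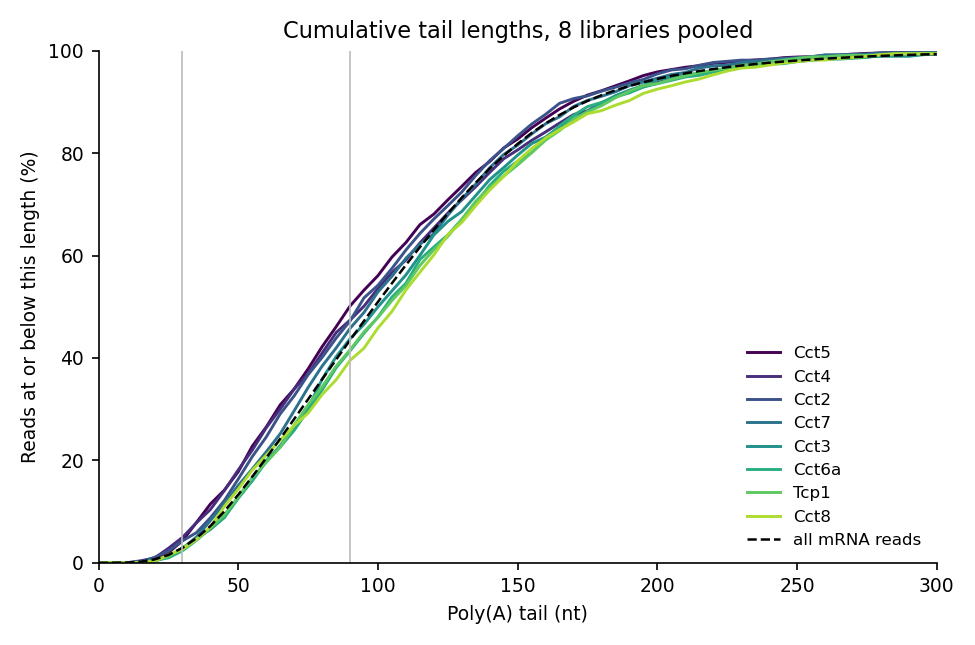
Share of reads (percent, vertical axis) with a tail at or below the length on the horizontal axis (nt), for the 8 genes with libraries pooled and for all mRNA reads (dashed); grey lines mark 30 and 90 nt. At 90 nt the curve of Cct5 is highest and that of Cct8 lowest, with 49.8% and 60.5% of their reads longer than that, and the dashed curve runs between them.

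Whole tail distributions were compared by the Kolmogorov-Smirnov distance, the largest gap between 2 cumulative curves on a scale from 0 to 1. Among the 28 pairs the distance had a median of 0.0594 and ran from 0.0187 (Tcp1 and Cct6a) to 0.114 (Cct5 and Cct8). The distance of a member to the pooled reads of the other 7 members ran from 0.0214 (Cct7) to 0.0728 (Cct8). The 673 other genes with at least 400 reads had a median distance of 0.0768 to the pooled reads of all 8. The subunits were mostly not each other's nearest match. Of 680 other genes, Cct6a was the nearest to Tcp1 and Tcp1 the nearest to Cct6a, but for the other 6 members the nearest gene lay outside the complex (Psma6 for Cct2, Igfbp2 for Cct3, Trh for Cct4, Rpl34 for Cct5, Sumo2 for Cct7 and Slc25a3 for Cct8). The 7 fellow subunits had median ranks between 106 (for Cct6a) and 346 (for Cct5) out of 680. The 5 genes whose tails were most like those of the pooled complex were Dynll1, a dynein light chain (distance 0.0187, 1600 reads), Cox7c, a subunit of cytochrome c oxidase (0.0193, 2624 reads), Sumo2, a small protein modifier (0.0194, 2142 reads), Sec13, a coat protein of transport vesicles (0.0203, 465 reads), and Atp5a1, a subunit of the ATP synthase (0.0214, 1848 reads). These are descriptions over pooled reads, not corrected for the number of reads of a gene.

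Tails of the complex were set against those of 3 other groups of genes with a two-sided exact sign-flip permutation test over the 8 libraries. Pooled chaperonin reads had longer tails than the 20S proteasome, at 98.5 nt against 89.8 nt (mean of library medians), a difference of 8.62 ± 2.58 nt (SD, n = 8 libraries) that was positive in 8 of 8 libraries (exact permutation p = 0.00781, adjusted p = 0.0234). They did not differ detectably from prefoldin, the complex that hands unfolded actin and tubulin to TRiC (98.4 nt, difference 0.0238 ± 2.78 nt, higher in 4 of 8 libraries, exact permutation p = 0.992). The actin and tubulin mRNAs had tails of 102 nt, with a difference of -3.44 ± 3.18 nt (chaperonin lower in 6 of 8 libraries, exact permutation p = 0.0391, adjusted p = 0.0586), which missed the threshold but passed it when each gene was given equal weight (-5.44 nt), when mapping quality had to reach 10 (-3.63 nt) and with a barcode confidence of at least 0.9 (-2.89 nt). It also passed without DMSO library 21 of 24 h (-4.23 nt) or MHY library 23 of 24 h (-3.98 nt).

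MHY left the reads of the 8 genes without a called change. In a limma voom fit of 4116 genes, 2 genes were called at 24 h (0.0486% of those tested, adjusted p under 0.05) and 71 at 48 h (1.72%), and 0 of the 8 chaperonin genes were among them at either time. At an unadjusted p under 0.05 it was 3 of 8 at 24 h, where 4.47% of all genes passed, and 1 of 8 at 48 h, where 12.3% passed. In bulk RNA a change in reads is relative to the other mRNAs of the cells, and fewer cells of a kind cannot be told from less RNA per cell.

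At 24 h the fitted change was below 0 in 7 of 8 genes, against 52.7% of all genes, and at 48 h it was below 0 in 7 of 8, against 51.5%. With scaling by library totals the number stayed at 7 of 8 at 24 h, but it was 4 of 8 at 48 h, where Cct3, Cct4 and Cct5 turned above 0. Chaperonin reads as a whole were 56.7 and 60.4 per 10000 in DMSO and 52.5 and 49.7 in MHY, so that the groups did not overlap (58.6 ± 2.65 against 51.1 ± 1.96, SD, n = 2; exact permutation p = 0.333, the smallest that 2 against 2 libraries allow). The ratio was -0.20 on the log2 scale, and within the 3 runs it was -0.22, -0.18 and -0.19. In the second of these runs the groups overlapped, with a lowest DMSO value of 52.21 and a highest MHY value of 52.28 per 10000. Cct6a had the lowest log2 change, -0.45 ± 0.17 (SE; adjusted p = 0.916 by limma voom), followed by Cct8 (-0.36 ± 0.16, adjusted p = 0.958) and Cct5 (-0.32 ± 0.16, adjusted p = 0.958), while Tcp1 was at 0.09 ± 0.16 (adjusted p = 0.992). In 5 of the 8 genes (Cct2, Cct3, Cct5, Cct6a and Cct8) the groups did not overlap in reads per 10000, with MHY lower, as in 16.6% of all genes, and in Tcp1 they did not overlap with MHY higher, as in 17.8% of all genes. The median log2 change of the 8 genes was -0.27, against -0.02 over all genes. The values of the 8 genes come from the same 4 libraries, so their common direction is not 8 independent observations. The summed mesoderm markers, given above, also did not overlap at 24 h, as held for 16.6% of single genes with MHY lower. Their part in the chaperonin values was not tested.

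At 48 h chaperonin reads summed to 52.9 and 53.8 per 10000 in DMSO and 54.2 and 50.6 in MHY, and the groups overlapped (exact permutation p = 1). The median log2 change of the 8 genes was -0.14 against -0.02 over all genes. Scaling by library totals instead of size factors, which moved the median over all genes by 0.12 at 48 h, brought it to -0.03, closer to the change in the sum. The lowest value was that of Cct2, -0.36 ± 0.16 (SE; adjusted p = 0.305 by limma voom). Reads of Cct2 and of Cct7 lay lower in both MHY libraries than in both DMSO libraries, which held for 14.4% of all genes; 0 of 8 did not overlap with MHY higher, against 25.2%. The change at 48 h was set against that at 24 h as an interaction, in which 14 genes (0.34%) but 0 of the 8 passed, with 0 members and 6.63% of all genes at an unadjusted p under 0.05 and members between -0.07 and 0.28.

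**Figure D4:**
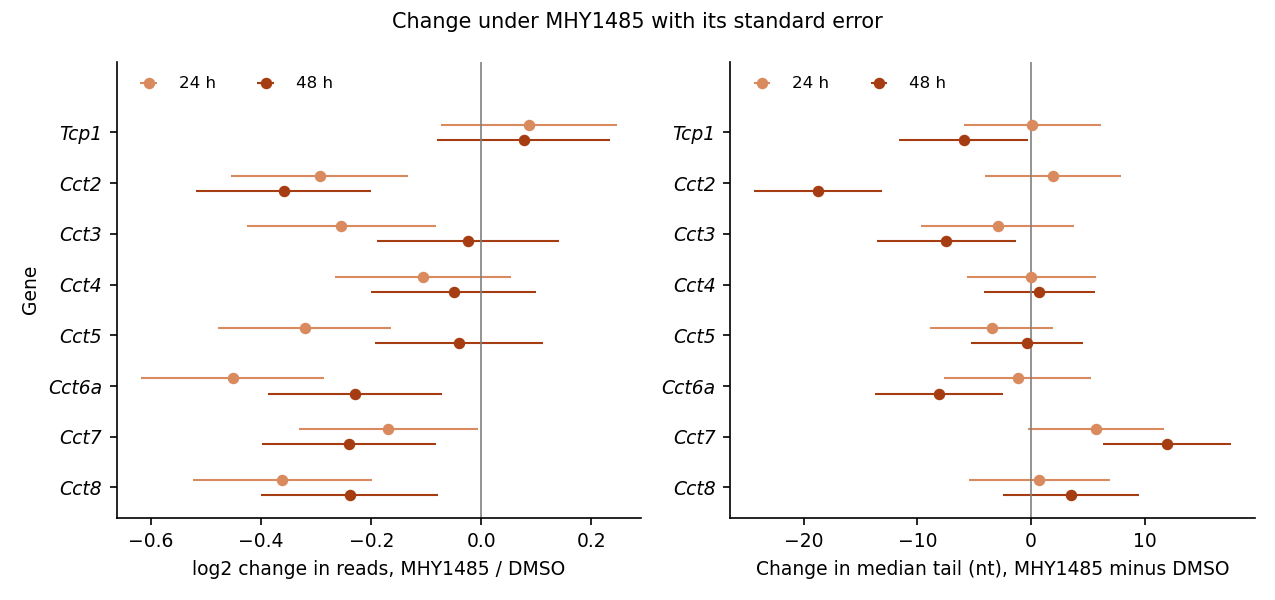
Change under MHY for each gene at 24 h (light) and 48 h (dark), as the fitted log2 change in reads (left) and in median tail in nt (right), with the standard error as a line. In reads all genes but Tcp1 lie below 0 at both times, though Cct3, Cct4 and Cct5 turn above 0 at 48 h with scaling by library totals, and in tails Cct2 (-18.7 nt) and Cct7 (11.97 nt) at 48 h lie farthest from 0.

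Median tails of the 8 genes had no called change either. At 24 h, 0 of 1949 genes were called by limma (0.0%; 77 genes, 3.95%, had an unadjusted p under 0.05, 0 of them chaperonin genes), and the members' changes lay between -3.45 nt (Cct5) and 5.73 nt (Cct7), each with an SE of 5.41 to 6.73 nt. The groups did not overlap in Cct7 alone, with MHY higher, as in 14.3% of all genes (0 of 8 lower, against 17.9%). At 48 h, 17 genes were called (0.872%), all of them with shorter tails in MHY, and 0 of the 8 members were among them; 2 of 8 had an unadjusted p under 0.05, as had 8.36% of all genes. The median change was -3.13 nt over the 8 members and -3.02 nt over all genes.

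Cct2 and Cct7 had the values farthest from 0 at 48 h, in opposite directions, and neither passed the test. The Cct2 median was 103.8 and 101.5 nt in DMSO and 80.05 and 90.5 nt in MHY, a fitted change of -18.7 ± 5.64 nt (SE; limma adjusted p = 0.123). Cct7 had 84.5 and 95.4 nt in DMSO and 100.25 and 106.7 nt in MHY, a change of 11.97 ± 5.63 nt (limma adjusted p = 0.576). The groups did not overlap in either gene. They did not overlap in Cct3 (limma -7.45 ± 6.15 nt, adjusted p = 0.854) and Cct6a (-8.1 ± 5.64 nt, adjusted p = 0.793) as well, both lower in MHY, so that this held for 3 of 8 members lower, where it held for 21.8% of all genes, and for 1 of 8 higher, where it held for 12%. Under the other settings the Cct2 change ran from -22.4 to -10.4 nt and that of Cct7 from 7.54 to 18.4 nt, and neither was called under any. At 24 h Cct2 changed by 1.93 ± 5.98 nt. The difference between the 2 times was -20.7 ± 8.22 nt for Cct2 (limma adjusted p = 0.999), and 0 of 1949 genes passed this interaction, where 86 (4.41%) had an unadjusted p under 0.05, Cct2 among them.

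The share of tails of 30 to 90 nt, fitted as log2 odds, was called in 0 genes at 24 h (0.0%; 95 genes, 4.87%, at an unadjusted p under 0.05, 0 of them members) and in 5 of 1949 at 48 h (0.257%), with 0 chaperonin genes among them (1 of 8 at an unadjusted p under 0.05, against 6.16% of all genes). At 48 h the lowest value was that of Cct7, at -0.53 ± 0.24 (SE; limma adjusted p = 0.735), where the share was 49.6% and 45.6% in DMSO and 37.7% and 38.9% in MHY. Cct2 had 0.28 ± 0.24 (adjusted p = 0.942). The interaction had 0 calls (69 genes, 3.54%, at an unadjusted p under 0.05, 0 of them members). The groups did not overlap in Cct5 at 24 h (MHY higher, as in 17.9% of all genes), nor at 48 h in Cct5 and Cct7 (MHY lower, 15.2%) and in Cct2 (MHY higher, 17.6%).

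Pooled over the 8 genes, the median tails of the groups overlapped. They were 101 and 100.2 nt in DMSO and 97.4 and 106 nt in MHY at 24 h (exact permutation p = 1), and 96.5 and 96.7 nt in DMSO and 91.8 and 98.4 nt in MHY at 48 h (exact permutation p = 1). The share of 30- to 90-nt tails changed by 0.252 percentage points at 24 h (39.5% to 39.8%) and by -1.18 at 48 h (43.3% to 42.1%; exact permutation p = 0.667), with groups that overlapped at both times. The share of tails under 30 nt did not overlap between groups. Such tails made up 3.51% and 3.48% of chaperonin reads in DMSO and 3.05% and 2.82% in MHY at 24 h, but 2.48% and 2.64% in DMSO and 5.09% and 3.97% in MHY at 48 h. The DMSO libraries were higher at 24 h and the MHY libraries at 48 h (exact permutation p = 0.333 each, the smallest possible).

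The higher share in MHY at 48 h was found in both runs (1.94 and 2.01 percentage points). By the group means it was higher in 7 of 8 genes, from Cct7 (-1.46 points) as the exception to Cct2 (4.73 points), against 63.8% of the 1949 genes with at least 10 reads in every library. At 24 h it was lower in 6 of 8 genes, against 50.1% of those genes. The same share over all mRNA reads of these libraries was 2.87% and 2.57% in DMSO and 4.46% and 3.38% in MHY at 48 h, so that it was higher in both MHY libraries there too. The summed neuronal markers were 3.28 and 2.91 per 10000 in DMSO and 2.66 and 2.43 in MHY at 48 h. These groups did not overlap, as in 14.4% of the single genes tested in reads (MHY lower). The part of these values in the chaperonin share was not tested. At 24 h the value within runs was -1.61, -0.0198 and 0.541 points, so the lower share in MHY did not hold in every run, and over all mRNA reads it was 2.34% and 2.72% in DMSO and 2.23% and 2.17% in MHY.

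**Figure D5:**
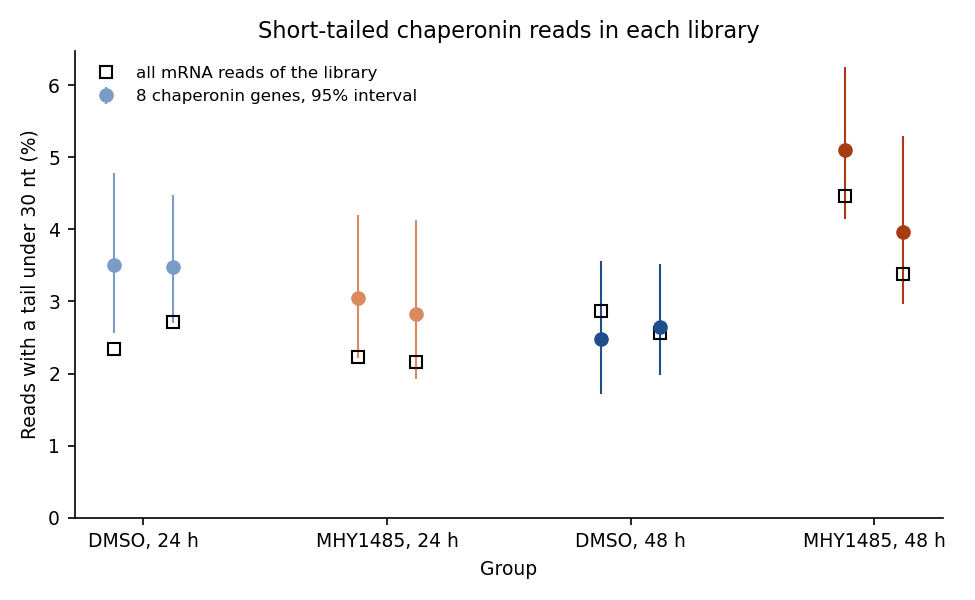
Share of reads with a tail under 30 nt (percent, vertical axis from 0) in each library, by group, for the 8 chaperonin genes pooled (filled, with Wilson 95% intervals) and for all mRNA reads of the library (open squares). The MHY libraries of 48 h have the highest values in both measures, 5.09% and 3.97% for the chaperonin genes.

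Genes that work with the chaperonin were read from lists in the same fits. Of the prefoldin genes (6 of 6 tested) 0 were called in reads or tails at either time; the 2 with the most reads, Pfdn6 and Pfdn1, had 490 and 459 reads and median tails of 83.3 and 89.5 nt. Of the phosducin-like co-chaperones, Pdcl3 (129 reads) alone had enough reads to be tested in reads (1 of 3) and was not called; Pdcl had 44 reads and Pdcl2 0. Among the tubulin cofactors, which take tubulin from TRiC and join its chains, 4 of 5 were tested in reads and 2 of 5 in tails, and 0 were called (Tbca, 377 reads, 106.0 nt; Tbcb, 228 reads, 84.0 nt). Other clients, such as the cell cycle activator Cdc20 (411 reads, 117 nt) and the G protein subunit Gnb1 (336 reads, 105 nt), had 6 of 7 tested and 0 called. The distant relatives Mkks and Bbs12, which belong to a chaperonin-like complex of the primary cilium, had 87 and 6 reads, Bbs10 had 4 and Cct8l1 had 0. Of these, Mkks was tested in reads and not called. The mitochondrial chaperonin genes Hspe1 and Hspd1 had 2616 and 1301 reads and median tails of 87.6 and 97.0 nt, and neither was called; Hspd1 had a log2 change in reads of -0.56 ± 0.17 at 24 h (limma voom adjusted p = 0.433). Of the 14 genes of the 20S proteasome, 0 were called (Psmb3, 1368 reads, 91.0 nt; Psmb5, 1339 reads, 88.3 nt).

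One client gene was called. Of 11 actin and tubulin genes, 10 were tested in reads and 9 in tails. Actg1 (6302 reads, 102 nt) and Tuba1b (5624 reads, 94.1 nt), the ones with the most reads, were not called in any measure. Tuba1a, an alpha-tubulin gene, had a median tail of 105.5 and 107.7 nt in DMSO and 89.8 and 91.9 nt in MHY at 48 h, a fall of 16.1 ± 3.48 nt (SE; limma adjusted p = 0.0119), and a rise of the 30- to 90-nt share from 34.1% and 36.4% to 46.9% and 45.7% (log2 odds 0.67 ± 0.15, limma adjusted p = 0.0380). At 24 h its medians were 106.7 and 110.3 nt in DMSO and 105.4 and 102 nt in MHY (limma adjusted p = 0.996). The call on the median held under 12 of 16 other settings and was lost without weights, with the libraries of 48 h alone, without DMSO library 25 of 48 h and without MHY library 24 of 48 h (changes of -17.2 to -12.7 nt over all 16). The call on the share held under 6 of 16. Alpha-tubulin genes are near-identical in coding sequence, so reads may be split between them.

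Promoters were read for the 7 genes with an entry in the RefSeq table (GRCm38.p6), from 250 bases before to 50 bases after the annotated start. Cct2 and Cct5 had 2 entries each, of which the one with more read starts within 50 bases was taken (16 and 7 reads, against 0). The GC box GGGCGG (either strand) was found in 7 of 7, against 35.7% of 32851 promoters, and the CCAAT box in 4 of 7 (Tcp1, Cct3, Cct6a and Cct7) against 37.4%. The E-box CACGTG was found in 0 of 7, against 7.15% of all promoters. The TATA box TATAAA was also found in 0 of 7, against 13.6%, and so was a pair of heat shock element units (GAANNTTC), against 7.86%. These are letter matches, and they say nothing on the factors that bind such motifs. The 32851 promoters are all entries, whether or not their genes had reads here, so the shares are not those of genes expressed like the members.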

How the data were processed

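Direct RNA reads of 8 libraries were base-called with Guppy, assigned to barcodes with Deeplexicon, mapped by the authors with minimap2 2.20 (version from the submitters' processing notes) to mm10 annotated with GENCODE vM17, and given tail lengths by Nanopolish. The deposited table holds 1 alignment per line, with a tail length in nt, a barcode confidence as a fraction and a mapping quality score. Alignments tagged PASS on mRNAs were kept here, without those on mitochondrial genes (66955) and pseudogenes (12169), 1 per read and transcript (1926118 of 2439710). Reads per gene (at least 10 in 2 libraries) were fitted with limma voom (limma 3.58.1, R 4.3.3) with median-of-ratios scaling. Median tails and log2 odds of 30- to 90-nt tails (0.5 reads added; at least 10 reads in each library) were fitted with weighted limma, with Benjamini-Hochberg adjustment over all genes at a threshold of 0.05. Genes and complexes were compared over libraries with exact permutation tests written for the purpose (numpy 2.4.6). Wilson intervals came from scipy 1.17.1. The scripts were tested on simulated data. The labels give 2 replicates a group but not which library number is which. The members and lists were chosen with earlier results of these data known. Named were the 8 members, list genes that passed a test, the 2 most-read genes of each list and the 5 genes nearest in tail distribution. Alternatives changed the filter, scaling, weights, class bounds, tail average, mapping quality, barcode confidence, replicate block and samples fitted. Some 3′ end windows are not reported here.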

Additional observations from a re-analysis of the deposited data

Results flagged for a closer look

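The share of chaperonin reads with tails under 30 nt differed between the time points in direction, with every MHY library on one side of every DMSO library at each time. The change under MHY was -0.558 percentage points at 24 h and 1.97 percentage points at 48 h. Within runs the change at 24 h was -1.61, -0.0198 and 0.541 percentage points, so that its direction was not the same in every run, and at 48 h it was 1.94 and 2.01. The share over all mRNA reads moved in the same directions, from 2.34% and 2.72% in DMSO to 2.23% and 2.17% in MHY at 24 h, and from 2.87% and 2.57% to 4.46% and 3.38% at 48 h. The difference between the 2 times was not tested.

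Alignments outside the comparisons also held chaperonin reads. The tag ADAPTER, given by the tail caller where the adapter signal was unusual, marked 1423 alignments to the 8 genes (11.7% of their alignments), with a median tail of 92.7 nt against 98.1 nt for those that passed.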

How the results depend on the processing

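None of the 8 genes was called under any setting. Of 912 values for single genes, 785 kept their sign and 127 changed sign, 0 of them into a call. No limit was set on the size of a change in these values. Scaling by library totals moved the median of all genes by 0.03 at 24 h and 0.12 at 48 h, and brought the members' median in reads at 48 h to -0.027 (-0.14 before). The cause of the changes below was not tested.

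Genes called in reads numbered 1 at 24 h with mapping quality of at least 10 (2 before), 147 at 48 h without the filter on low counts and 44 with barcode confidence of at least 0.9 (71 before), and for the interaction 29, 6 and 7 with no filter, mapping quality and confidence (14 before). Median tails at 48 h gave 0 calls without weights and 0 with the time point alone (17 before). The 30- to 90-nt share at 24 h gave 1 call with the confidence limit and 4 with the time point alone (0 before), and at 48 h 0 without weights, 3 with bounds of 40 and 80 nt, 1 with mapping quality, 3 with confidence and 1 with the time point alone (5 before). With the replicate block the share gave 4 calls at 24 h and 8 at 48 h, and no other count of calls changed by over 1.5 times. Deviations of single genes in same-numbered libraries correlated at 0.0263 and 0.135 in reads and 0.0475 and 0.045 in tails. Counting noise lowers such values, so they cannot show whether these libraries were paired. No label states a pairing, and the main fits took none.

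The under-30-nt share at 24 h changed by -0.143 points with a bound of 20 nt and by -1.61, -0.0198 and 0.541 within runs; at 48 h it changed by 0.374 with that bound. Mean tails gave 11 pairs. Equal weight per gene gave -1.80 nt against prefoldin and -5.44 against actin and tubulin, where mapping quality gave -3.63 and confidence -2.89.

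Leaving out 1 library at a time gave 0 to 1 calls in reads at 24 h, 17 to 141 at 48 h and 0 to 30 for the interaction, 0 to 41 in tails at 48 h, and 0 to 1 and 0 to 36 in the share at 24 h and 48 h. At 48 h, leaving out DMSO library 25 or MHY library 24 gave 18 and 17 calls in reads and 0 each in tails and share. Without MHY library 25 there were 141 in reads, 39 in tails and 36 in the share, and without DMSO library 24 there were 41 in tails and 18 in the share. The interaction in reads had 0 calls without DMSO library 23 of 24 h, DMSO library 25 or MHY library 24 of 48 h, 4 without MHY library 23 of 24 h and 30 without MHY library 25 of 48 h. The members' median ranged from -0.36 to -0.22 in reads at 24 h, from -3.33 to 4.62 nt in tails at 24 h, and from -0.16 to 0.13 in the share at 48 h. Over the pooled chaperonin reads, the 30- to 90-nt share changed by -1.93 to 2.43 percentage points at 24 h and by -2.53 to 0.177 at 48 h. Pairs past the test numbered 0 in tails and 0 to 11 in reads. The difference from prefoldin ranged from -0.533 to 0.765 nt and that from actin and tubulin from -4.23 to -3.01 nt. With 2 libraries a group and 95 to 273 reads of a member in each, standard errors of median tails were 4.87 to 6.73 nt, and changes as large as -18.7 nt (Cct2 at 48 h) were not called.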
